A study of Homo sapiens with 42 samples.

Results

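The elastic fibre genes are 10 protein-coding genes taken by symbol from a table of raw read counts that lists 28266 symbols: ELN, FBN1, FBN2, MFAP4, MFAP5, FBLN1, FBLN2, FBLN5, LOX and LOXL1. They were followed across 42 poly(A) RNA-seq libraries of IMR90 cells, an established line of human fetal lung fibroblasts. All 10 are in the table, and 9 of them had enough counts to be tested. MFAP5 had 0 to 8 counts in every library and is described by its counts only.

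The ER:RAS line is IMR90 that carries RAS fused to the ligand-binding part of the oestrogen receptor, delivered by retrovirus and switched on by 4-hydroxytamoxifen (4OHT). It received 100 nM 4OHT, which drives oncogene-induced senescence (OIS), or DMSO. Unmodified IMR90 received bleomycin, a DNA-damaging drug, at 50 µg/ml for 24 h, or DMSO. Each of these 4 states was combined with a control shRNA, COPB2 shRNA 1 or COPB2 shRNA 2, giving 12 groups of 3 libraries (ER:RAS) or 4 (IMR90). Every group, controls included, carried an inducible shRNA, spent 7 days in culture and then took doxycycline at 1 µg/ml for 72 h before RNA was taken at day 10. COPB2 encodes a coatomer subunit needed for COPI vesicles, which move cargo within the secretory pathway. The labels do not say that replicates were separate cultures, whereas the study describes the replicates of its knockdown profiles as independent experiments. P-values measure the spread between these libraries.

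Elastic fibres give the lung its recoil. Cells secrete tropoelastin, which is laid down on a scaffold of fibrillin microfibrils with the help of fibulins and other microfibril-associated proteins, and lysyl oxidases then cross-link it into insoluble elastin. Lung fibroblasts are a main source of these proteins during development, and each step needs secreted proteins.

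Promoters of 3 members are shown: FBLN1 and FBLN2, whose responses to 4OHT and bleomycin differed most, and LOX, the member that was higher with bleomycin. Each run holds the 250 bases before the RefSeq gene start on GRCh38.p14, read 5′ to 3′ on the strand of the gene, with matches to GGGCGG (the GC box) and CCAAT on either strand in capitals.
FBLN1 promoter, chr22:45502633-45502882, plus strand: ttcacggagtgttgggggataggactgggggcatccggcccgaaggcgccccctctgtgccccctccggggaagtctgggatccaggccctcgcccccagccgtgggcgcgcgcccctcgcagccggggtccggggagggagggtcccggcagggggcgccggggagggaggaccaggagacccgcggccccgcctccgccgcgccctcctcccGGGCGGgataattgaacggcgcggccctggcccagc
FBLN2 promoter, chr3:13548875-13549124, plus strand: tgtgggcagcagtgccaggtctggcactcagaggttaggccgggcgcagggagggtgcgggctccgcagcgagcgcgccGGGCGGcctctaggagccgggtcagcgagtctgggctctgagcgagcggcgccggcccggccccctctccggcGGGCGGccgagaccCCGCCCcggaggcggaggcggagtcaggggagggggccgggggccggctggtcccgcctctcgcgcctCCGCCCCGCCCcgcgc
LOX promoter, chr5:122078260-122078509, minus strand: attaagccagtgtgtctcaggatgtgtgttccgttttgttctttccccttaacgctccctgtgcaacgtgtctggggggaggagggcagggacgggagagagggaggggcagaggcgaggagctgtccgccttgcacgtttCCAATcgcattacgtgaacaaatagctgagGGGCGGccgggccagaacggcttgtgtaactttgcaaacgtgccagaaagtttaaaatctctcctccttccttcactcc

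Promoters were matched for 7 members (FBN1, FBN2, FBLN1, FBLN2, FBLN5, LOX and LOXL1). The FBN1 window, 48644971 to 48645220 on chromosome 15, lay inside the gene as placed here (48408313 to 48645709). The other windows lay directly before the gene start. GGGCGG occurred in 5 of the 7 (FBN2, FBLN1, FBLN2, FBLN5 and LOX), against 42.6% of 35116 promoters of the same length, and CCAAT in 3 (FBN2, FBLN5 and LOX), against 32%. TATAAA (10.7% of all promoters) and TGANTCA (6.57%) occurred in none of the 7. These matches describe letters in the window and do not separate LOX, which has both motifs, from FBN2 and FBLN5, which have both as well. The GC content of these promoters ran from 55.2% in LOX to 80.4% in FBLN2.

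The libraries held 13148194 to 23597310 counts, of which the 10 members together took 0.0243% to 0.467%. Expression is given as CPM, the count of a gene per 1000000 counts of its library, with the library total multiplied by its TMM factor. TMM factors were 0.6114 to 0.9472 with 4OHT and 0.8727 to 1.16 in the other libraries. The line labels matched the fusion gene: mean HRAS was 3420 to 4903 CPM over the ER:RAS groups and 29.7 to 97.1 over the IMR90 groups. Among fibroblast markers (9 genes such as COL1A1 and VIM) the summed level was 8158 to 27791 CPM in all libraries, while epithelial markers summed to at most 1.87 CPM, with KRT5, SFTPC and NKX2-1 at 0 to 3 counts. Genes on the opposite strand overlap FBN1 (a gene without a symbol), FBN2 (SLC27A6), MFAP4 (MAPK7), MFAP5 (HADHAP2), ELN, LOX and LOXL1. On the same strand, another gene without a symbol overlaps FBN1, and a Y RNA gene overlaps FBN2. Whether counting, as opposed to alignment, used strand is not stated.

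Because genes differ in length, levels were compared between members as CPM per kb of transcript. In ER:RAS cells with DMSO and the control shRNA, MFAP4 and FBLN1 were the most abundant members at 570 and 539 CPM per kb, followed by LOXL1 at 174 and FBLN5 at 80.7. ELN was the lowest of the tested members at 1.61 CPM per kb. IMR90 cells with DMSO had the same leading pair, MFAP4 at 618 and FBLN1 at 580 CPM per kb, with ELN again the lowest at 4.22. The DMSO-treated fibroblasts thus held abundant mRNA for MFAP4 and fibulin-1 and little for elastin itself.

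**Figure D1:**
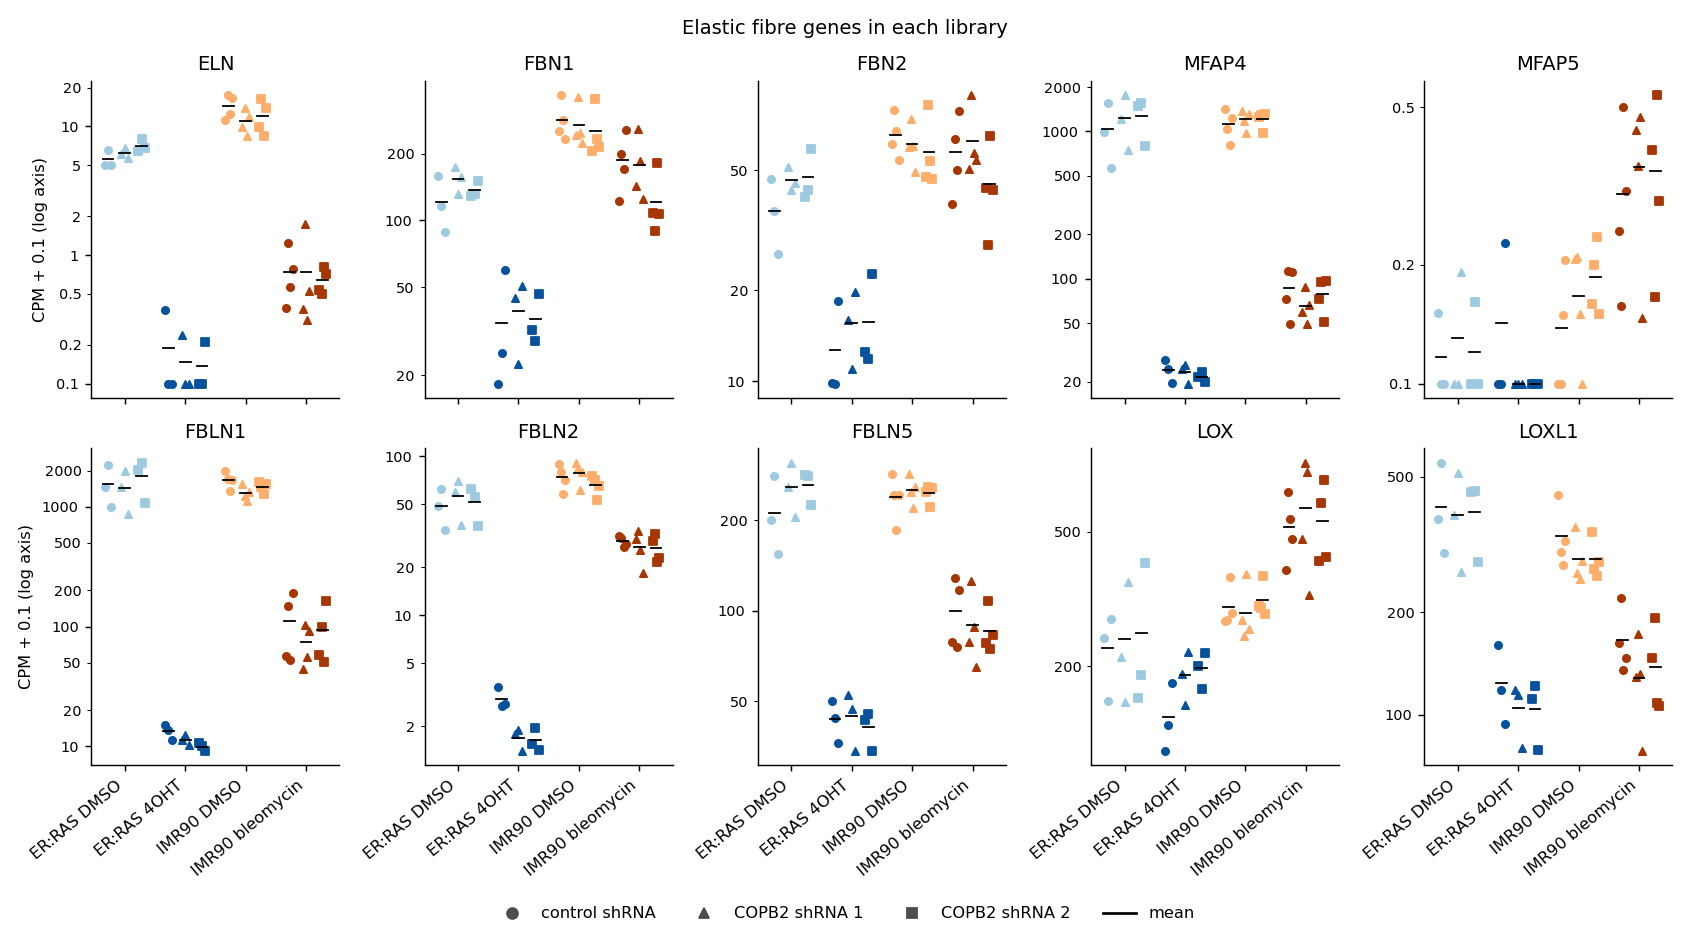
CPM plus 0.1 (log axis) of each member in each of the 42 libraries, by cell line and treatment; point shape marks the shRNA and bars mark group means. For ELN, MFAP4, FBLN1, FBLN2, FBLN5 and LOXL1 every senescent library lies below every DMSO library of its line and shRNA, whereas LOX with bleomycin lies mostly above.

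The first comparison asked how the members responded to senescence in cells with the control shRNA. With 4OHT, 8 of the 9 tested members were lower, and in each the 3 senescent libraries lay below the 3 DMSO libraries. Over all 14297 genes tested, 35.7% were called in this comparison, 20.2% as lower, and 20.7% had 4OHT libraries that lay below all DMSO libraries. With bleomycin, 7 of the 9 were called, 6 lower and LOX higher, where 31.2% of 14783 genes were called, 15.8% as lower and 15.4% as higher. The libraries of these 7 members did not overlap between bleomycin and DMSO, which 13.9% (lower) and 14.1% (higher) of all genes showed. The median log2 fold change of the 9 members was -2.38 with 4OHT and -1.29 with bleomycin, beside -0.08 and -0.01 for all genes. With DESeq2 size factors the median of all genes in the 4OHT comparison shifted by 0.124, less than the change of any member called there. In bulk RNA, fewer cells with a transcript and less of it per cell cannot be told apart.

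ELN (chromosome 7, 74028173 to 74069907 on GRCh38.p14, plus strand) encodes tropoelastin, the monomer of elastin. In ER:RAS cells with DMSO it stood at 4.94, 6.46 and 4.95 CPM, and with 4OHT 1 library had 3 counts and the others had 0. The summed counts were 302 against 3, a ratio per unit of depth of 75.2 (exact 95% interval 25.5 to 367, counting error only). In IMR90 cells ELN was 11.2, 17.3, 12.4 and 16.5 CPM with DMSO. With bleomycin it was 0.29, 1.15, 0.46 and 0.67 CPM, on 6 to 20 counts a library. Elastin mRNA was therefore near the limit of detection in OIS and low but measured in every bleomycin library. The log2 fold change was -4.52 with bleomycin (SE 0.47, adjusted p 3.5e-07) and -6.15 with 4OHT (SE 0.83, adjusted p 3.22e-05), where the fitted size depends on the prior count of the fit. ELN-AS1, which overlaps ELN on the other strand, has no row in the table, so its reads were not analysed here.

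The fibrillins form the microfibril scaffold. FBN1 (chromosome 15, 48408313 to 48645709, minus strand) encodes the main fibrillin of adult tissue and is mutated in Marfan syndrome. It was 158, 116 and 88.5 CPM with DMSO in ER:RAS cells and 18.2, 25.04 and 59.5 with 4OHT. The groups did not overlap, and the log2 fold change was -1.88 (SE 0.43, adjusted p 0.00293). In IMR90 cells FBN1 was 254, 366, 282 and 233 CPM with DMSO and 122, 200, 171 and 254 with bleomycin. These groups overlapped, since the fourth bleomycin library lay above the fourth DMSO library, and the log2 fold change of -0.64 was not called (SE 0.26, adjusted p 0.071). Without that bleomycin library it was -0.80 with an adjusted p of 0.0387.

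FBN2 (chromosome 5, 128257909 to 128538245, minus strand), a fibrillin expressed mostly during development, had 46.5, 36.5 and 26.4 CPM with DMSO and 9.75, 9.71 and 18.3 with 4OHT. All 3 libraries with 4OHT were lower (log2 fold change -1.61, SE 0.37, adjusted p 0.00326). In IMR90 cells the ranges were 53.8 to 79.0 CPM with DMSO and 38.5 to 78.1 with bleomycin. The ranges overlapped, with 2 of the 4 bleomycin libraries below every DMSO library, and the log2 fold change of -0.22 (2 SE either side, -0.72 to 0.29) was not called.

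Among proteins that decorate microfibrils, MFAP4 (chromosome 17, 19383445 to 19387190, minus strand) encodes a glycoprotein that binds elastin and fibrillin. It was 990, 1554 and 568 CPM with DMSO in ER:RAS cells and 27.9, 24.4 and 19.7 with 4OHT. In IMR90 cells it was 1426, 1035, 810 and 1231 CPM with DMSO and 73.0, 113, 49.3 and 111 with bleomycin. Neither pair of groups came near overlapping. The log2 fold change was -5.52 (SE 0.39, adjusted p 4.2e-08) with 4OHT and -3.73 (SE 0.29, adjusted p 6.24e-09) with bleomycin. MFAP5 (chromosome 12, 8645943 to 8662826, minus strand), another microfibril-associated glycoprotein, reached at most 0.44 CPM, in a bleomycin library, and had 0 counts in every library of both 4OHT groups with a COPB2 shRNA. At this depth no difference could be tested for it.

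Fibulins link elastin, microfibrils and other matrix proteins. FBLN1 (chromosome 22, 45502883 to 45601135, plus strand; its promoter is shown above) was 1456, 2248 and 990 CPM with DMSO in ER:RAS cells. With 4OHT it was 14.98, 13.55 and 11.08 CPM. This was the largest log2 fold change among the members whose counts measure it in all libraries, -6.98 (SE 0.39, adjusted p 4.32e-09). In IMR90 cells FBLN1 was 1990, 1723, 1346 and 1672 CPM with DMSO and 56.8, 148, 52.2 and 191 with bleomycin. The groups again lay far apart, and the log2 fold change was -3.94 (SE 0.42, adjusted p 5.64e-07).

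FBLN2 (chromosome 3, 13549125 to 13638404, plus strand), whose product binds tropoelastin and fibrillin, was 48.5, 62.5 and 34.2 CPM with DMSO and 3.43, 2.58 and 2.66 with 4OHT. Its log2 fold change with 4OHT was -4.16 (SE 0.29, adjusted p 4.2e-08). In IMR90 cells it was 89.2, 80.0, 57.5 and 71.2 CPM with DMSO and 31.3, 30.7, 26.7 and 28.1 with bleomycin. The bleomycin libraries were close to each other and all below the DMSO libraries (log2 fold change -1.38, SE 0.19, adjusted p 1.41e-05).

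FBLN5 (chromosome 14, 91869411 to 91947694, minus strand), which is required for elastic fibre assembly in mice, was 201, 280 and 154 CPM with DMSO and 50.2, 43.9 and 36.2 with 4OHT. With bleomycin it was 78.6, 129, 76.0 and 117 CPM, against 284, 242, 186 and 243 with DMSO. Neither comparison overlapped. The log2 fold change was -2.38 (SE 0.21, adjusted p 5.84e-07) with 4OHT and -1.29 (SE 0.20, adjusted p 4.17e-05) with bleomycin.

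The lysyl oxidases, which cross-link elastin and collagen, were called in opposite directions with bleomycin. LOXL1 (chromosome 15, 73926462 to 73952136, plus strand), whose product is needed for elastin renewal, was 375, 550 and 299 CPM with DMSO and 160, 118 and 93.4 with 4OHT. In IMR90 cells it was 442, 300, 274 and 323 CPM with DMSO and 162, 220, 135 and 146 with bleomycin. LOXL1 was lower in every senescent library. Its log2 fold changes were -1.82 with 4OHT (SE 0.28, adjusted p 9.8e-05) and -1.04 with bleomycin (SE 0.23, adjusted p 0.00136). LOXL1-AS1, which overlaps it on the other strand, was lower too (log2 fold change -1.22 with 4OHT and -0.66 with bleomycin, adjusted p 0.000509 and 0.018), and since the counting mode is not stated, shared reads cannot be told apart.

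LOX (chromosome 5, 122063195 to 122078259, minus strand; its promoter is shown above) was 243, 158 and 276 CPM with DMSO in ER:RAS cells and 112, 134 and 178 with 4OHT. The ranges overlapped, and the log2 fold change of -0.77 (2 SE either side, -1.57 to 0.03) was not called (adjusted p 0.153). In IMR90 cells LOX was 272, 274, 368 and 287 CPM with DMSO and 384, 654, 544 and 476 with bleomycin. Here every bleomycin library lay above every DMSO library (log2 fold change 0.75, SE 0.23, adjusted p 0.0175). Without the second IMR90 DMSO library the adjusted p was 0.0507, and without the second bleomycin library it was 0.0742, with log2 fold changes of 0.73 and 0.60. SRFBP1, which overlaps LOX on the other strand, was not called in either comparison.

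**Figure D2:**
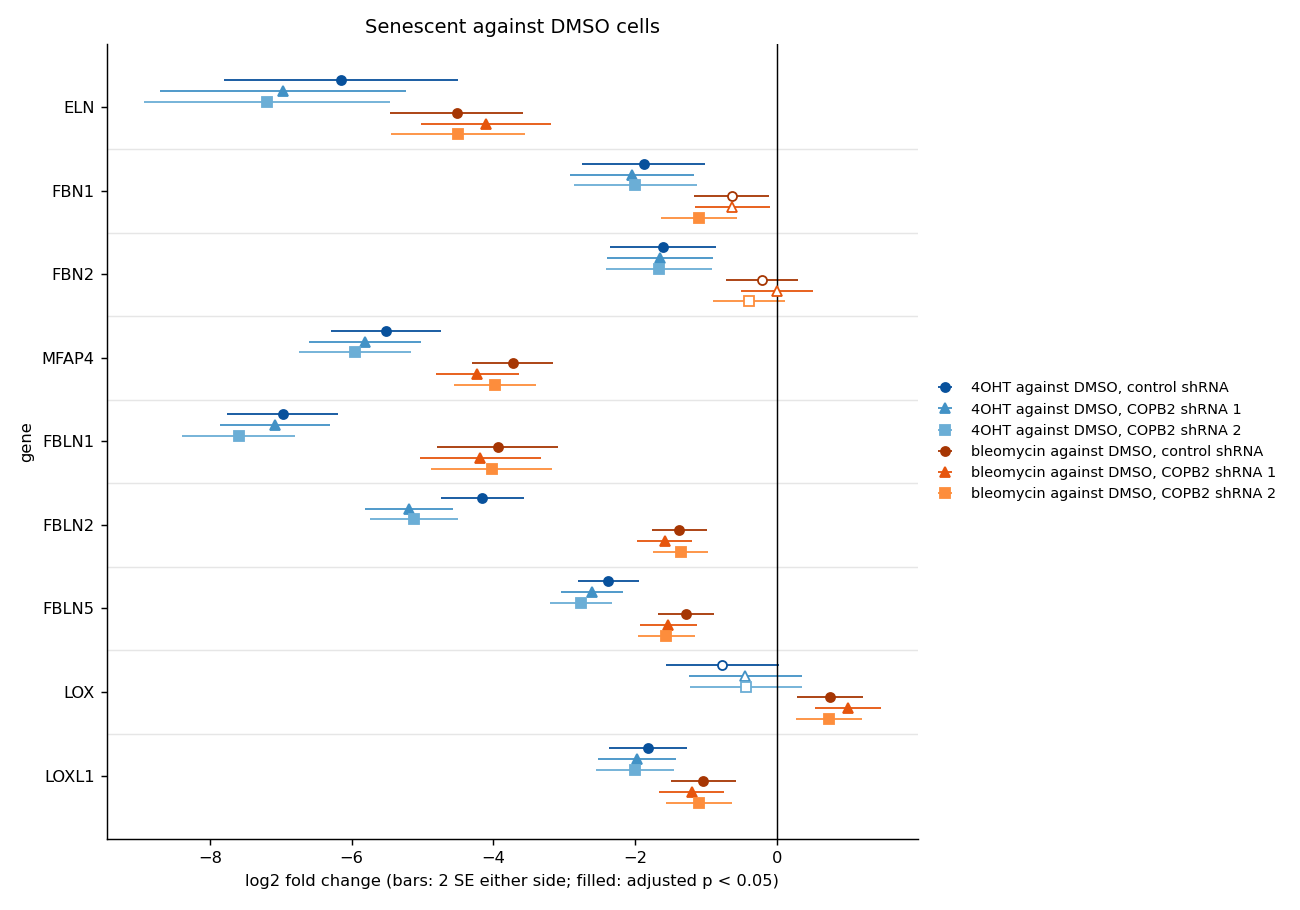
Log2 fold change of each tested member against DMSO in each shRNA arm, with 4OHT and with bleomycin; points are edgeR estimates (open where not called) and bars 2 SE either side. The 4OHT values run from -7.59 to -0.44 and the bleomycin values from -4.52 to 1.00, with LOX the member above 0 in all 3 bleomycin arms; the size drawn for ELN with 4OHT, on 0 to 3 counts a library, depends on the prior count of the fit.

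Beside these changes the smooth muscle markers (MYH11, DES, CNN1, ACTG2 and LMOD1) moved as well. Their summed level was 450 to 682 CPM with DMSO and 36.4 to 101 with 4OHT, where 5 of 5 were called lower. In IMR90 cells it was 337 to 615 CPM with DMSO and 145 to 360 with bleomycin, where 3 of 5 were called lower. Fibroblast markers were lower in 7 of 9 in both comparisons, with VIM higher with 4OHT. Their sums overlapped between 4OHT (15025 to 24494 CPM) and DMSO (18213 to 25308 CPM). Over all 42 libraries VIM reached 19828 CPM, while DCN and LUM fell to 6.66 and 3.37 CPM, so the sums do not describe each marker. With the control shRNA and bleomycin these sums (11950 to 21071 CPM) lay below those with DMSO (21998 to 27791 CPM). Endothelial markers (4 genes) summed to 9.25 to 11.1 CPM with 4OHT and 1.20 to 3.67 with DMSO, with 3 of 3 tested called higher. With bleomycin they summed to 2.12 to 3.64 CPM and with DMSO to 3.18 to 4.77, although 2 of the 3 tested were called higher and 1 lower. Leukocyte markers (4 genes) summed to 110 to 121 CPM with 4OHT and 17.2 to 40.2 with DMSO, and to 59.0 to 98.4 CPM with bleomycin and 13.3 to 29.5 with DMSO, nearly all of it CD68, while PTPRC had at most 36 counts and CD3E at most 7 in any library. Of all genes 20.2% were called lower and 15.5% higher with 4OHT, and 15.8% and 15.4% with bleomycin. The part of any change in cell makeup in the members' responses was not tested.

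The next comparison asked whether the responses to 4OHT and to bleomycin differed, as a difference of log2 fold changes in a single fit of all 42 libraries. This difference, 4OHT less bleomycin, was called for 6 of the 9 members, all in the negative direction, where 20.3% of 15299 genes were called and 12.1% in that direction. It was largest for FBLN1 (-2.98, SE 0.55, adjusted p 0.000151) and FBLN2 (-2.72, SE 0.34, adjusted p 2.66e-07). MFAP4 (-1.73, adjusted p 0.00375), LOX (-1.45, adjusted p 0.0134), FBN2 (-1.35, adjusted p 0.0184) and FBLN5 (-1.03, adjusted p 0.0158) followed. ELN (-1.60, 2 SE either side -3.56 to 0.35), FBN1 (-1.21, adjusted p 0.0624) and LOXL1 (-0.71, adjusted p 0.213) were not called. FBLN2 kept 5.97% of its DMSO mean with 4OHT and 39.2% with bleomycin, and FBLN1 0.844% and 6.65%.

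Not all of these 6 calls held when single libraries were left out. FBN2 was not called without any one of 4 libraries (adjusted p 0.0501 to 0.0756; replicate 1 of ER:RAS DMSO, replicates 1 and 2 of 4OHT, and replicate 4 of bleomycin), nor FBLN5 without replicate 2 of ER:RAS DMSO or replicate 3 of 4OHT (0.0824 and 0.0508). FBN1 was called without any one of 4 libraries (adjusted p 0.00291 to 0.0462; replicate 3 of ER:RAS DMSO, replicate 3 of 4OHT, replicate 2 of IMR90 DMSO and replicate 1 of bleomycin), and ELN without replicate 1 of 4OHT (0.0307), the sole library of that group with an ELN count. The line and the treatment change together in this comparison, so they cannot be told apart.

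The unequal responses changed the makeup of the elastic fibre mRNA pool. The summed level of the 10 members was 1434 ± 562 CPM per kb (SD, n = 3) with DMSO and 119.7 ± 11.93 with 4OHT, and in IMR90 cells 1543 ± 269.5 (SD, n = 4) with DMSO and 324.6 ± 77.42 with bleomycin. FBLN1 and MFAP4 together made up 76.2% ± 4.38 of this sum with DMSO in ER:RAS cells and 14.8% ± 1.35 with 4OHT. In IMR90 cells their share was 77.4% ± 1.92 with DMSO and 25.6% ± 7.46 with bleomycin. LOX and LOXL1 moved the other way, from 16.1% ± 3.5 to 67.3% ± 0.656 with 4OHT and from 13.2% ± 1.6 to 53.9% ± 8.09 with bleomycin. In OIS the leading member per kb was LOXL1 (52.8 CPM per kb), and with bleomycin it was LOX (101 CPM per kb). These shares describe relative amounts and follow from the responses given above.

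**Figure D3:**
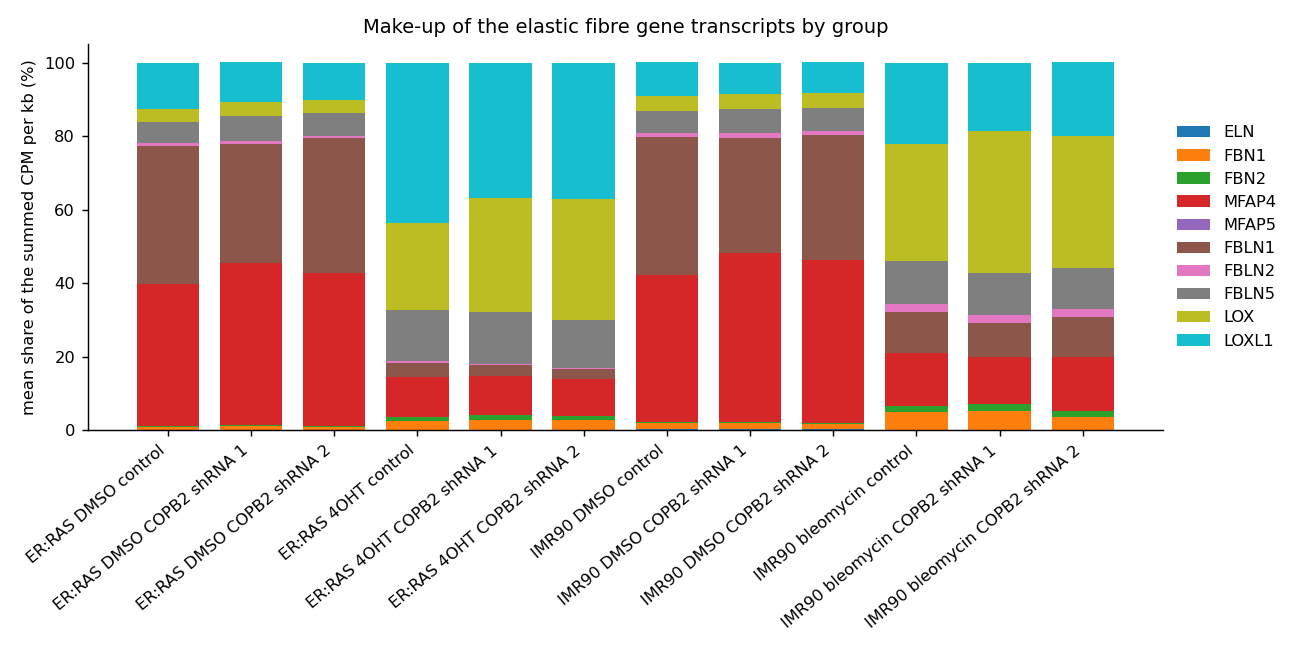
Share of each member in the summed CPM per kb of the 10 members, as the mean over libraries of each of the 12 groups. FBLN1 and MFAP4 make up 76.2% and 77.4% in both DMSO groups with the control shRNA, and LOX with LOXL1 makes up 67.3% with 4OHT and 53.9% with bleomycin.

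A further question was whether COPB2 knockdown altered these genes, since their products pass through the secretory pathway. The knockdown itself was evident in each state: mean COPB2 fell from 340 CPM to 45.7 (shRNA 1) and 51.8 (shRNA 2) in ER:RAS cells with DMSO, and from 479 to 100 and 113 with 4OHT. In IMR90 cells it fell from 361 CPM to 50.1 and 61.6 with DMSO and from 451 to 95.6 and 94.8 with bleomycin.

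None of the 9 members was called by edgeR or DESeq2 in any of the 8 knockdown comparisons, nor in the 4 tests of whether the knockdown effect differed between senescent and DMSO-treated cells. Few genes of any kind were called there: 0.00699% with either shRNA in ER:RAS cells with DMSO, 0.14% and 0.224% with 4OHT, 0.00676% and 0.00676% in IMR90 cells with DMSO, and 0.00676% and 0.0744% with bleomycin, and 0% in the 4 tests of a difference. The members' log2 fold changes with knockdown ran from -0.141 to 0.352 in ER:RAS cells with DMSO and from -0.385 to 0.118 in IMR90 cells with DMSO. In bleomycin-treated cells they ran from -0.618 to 0.196. In OIS they ran from -0.862 to 0.398 with shRNA 1 and from -0.916 to 0.457 with shRNA 2. LOX was the highest there, with means of 141 CPM (control shRNA), 188 (shRNA 1) and 197 (shRNA 2). The intervals of 2 SE around the members' log2 fold changes reached from -3.29 to 1.87 in OIS, both ends from ELN. They reached from -0.97 to 1.42 in ER:RAS cells with DMSO and from -1.14 to 0.631 in IMR90 cells with DMSO. In bleomycin-treated cells they reached from -1.35 to 1.04. They were narrower for single members, such as FBLN2 with bleomycin at -0.50 to 0.27 with shRNA 1 and -0.52 to 0.24 with shRNA 2.

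FBLN2 came closest to a change. In OIS it was 3.43, 2.58 and 2.66 CPM with the control shRNA, 1.69, 1.80 and 1.30 with shRNA 1 and 1.45, 1.85 and 1.3 with shRNA 2. Neither knockdown group overlapped the control, a pattern that 2.25% and 3.7% of all genes also showed in the lower direction. Its log2 fold change was -0.86 (unadjusted p 0.00696, adjusted p 0.775) and -0.92 (unadjusted p 0.00471, adjusted p 0.491), and the difference from the knockdown effect in DMSO was -1.04 and -0.96 (unadjusted p 0.0143 and 0.0212, adjusted p 1). FBLN1 with shRNA 2 was also below the control in all 3 OIS libraries (10.4, 9.96 and 9.02 CPM against 14.98, 13.55 and 11.08), at a log2 fold change of -0.44 (2 SE either side, -1.05 to 0.18). The other member with an unadjusted p under 0.05 was FBN1 with shRNA 2 in bleomycin-treated cells (-0.62, unadjusted p 0.0293, adjusted p 0.717). For ELN in OIS, with 0 to 3 counts a library, the intervals of 2 SE ran from -3.29 to 1.87.

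**Figure D4:**
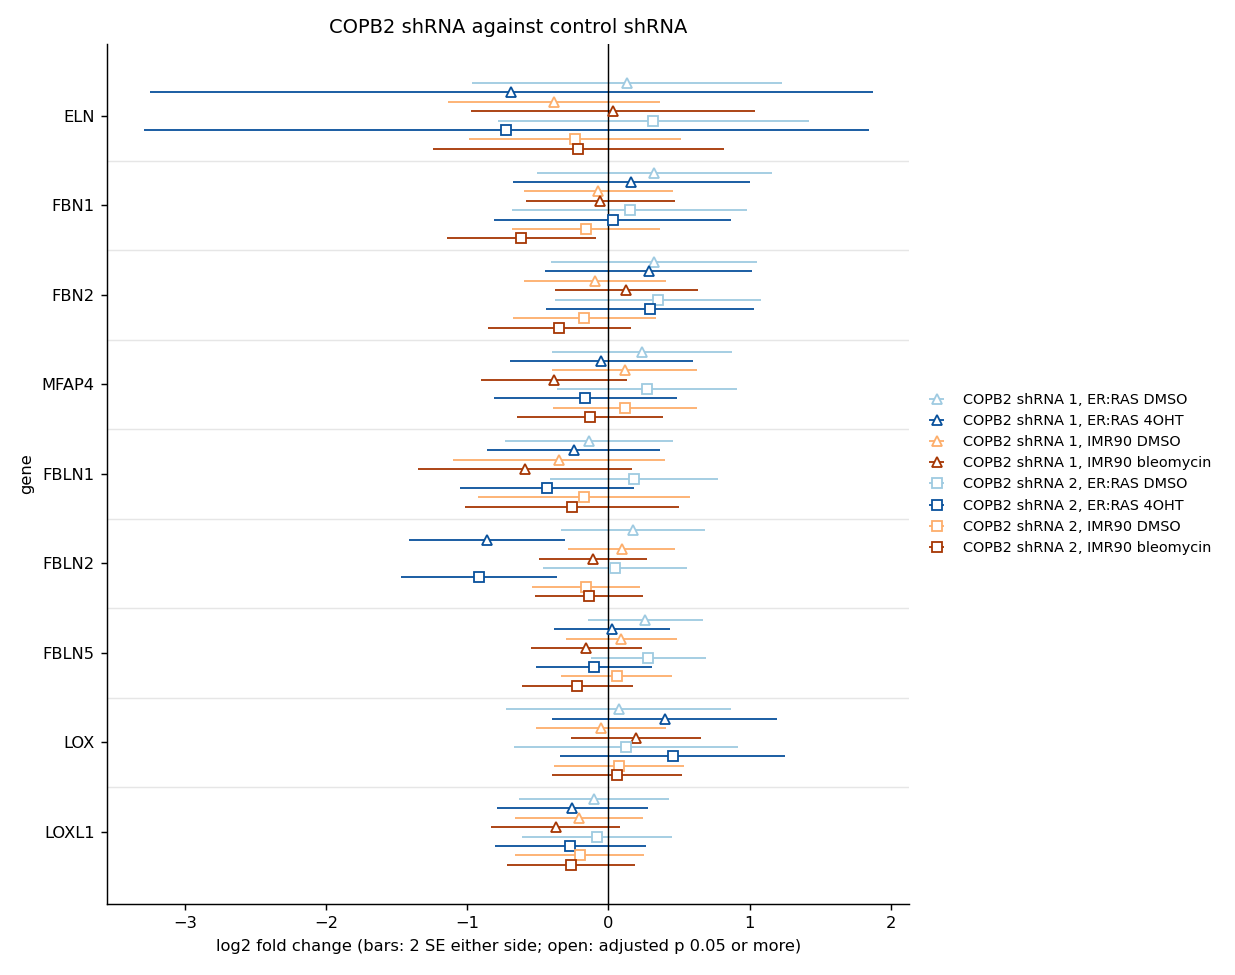
Log2 fold change of each tested member in all 4 states, with either COPB2 shRNA relative to the control shRNA; points are edgeR estimates and bars 2 SE either side. All bars span 0 except those of FBLN2 with 4OHT and of FBN1 with bleomycin and shRNA 2, and no member was called.

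The arms with a COPB2 shRNA gave further measurements of the senescence response, each against its own DMSO group. With 4OHT the same 8 members were lower with shRNA 1 and with shRNA 2, without overlap. Of all genes 36.9% were called in each arm, 21.5% and 22% as lower, and 24.6% and 24.5% were lower without overlap. The level kept with 4OHT, as a percentage of the DMSO mean, spanned 0.54 to 0.844 for FBLN1, 1.68 to 2.31 for MFAP4, 2.86 to 5.97 for FBLN2 and 15.5 to 20.5 for FBLN5 over the 3 arms. FBN1 kept 25.3 to 28.4%, LOXL1 26.2 to 30.4%, FBN2 32.9 to 34.5% and LOX 62.7 to 78.5%. Of the 8 members with a percentage given here, which leave out ELN, FBLN1 kept the least and LOX the most in every arm. ELN had 344 counts with DMSO and 2 with 4OHT with shRNA 1, and 343 and 2 with shRNA 2 (ratio per unit of depth 140, 95% interval 38.6 to 1160, and 164, 45.1 to 1360).

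With bleomycin, 7 members were called with shRNA 1 and 8 with shRNA 2. Of all genes, 35.2% were called with shRNA 1 (17.4% higher, 17.8% lower) and 40% with shRNA 2 (21.7% higher, 18.3% lower). The 6 that were lower in the control arm were lower in both, and LOX was higher in both (log2 fold change 1.00, adjusted p 0.00193, and 0.73, adjusted p 0.0153). With shRNA 1 a single LOX value, 325 CPM in bleomycin replicate 4, lay within the DMSO range of 246 to 374. Without bleomycin replicate 3 of the shRNA 2 arm its adjusted p there was 0.0571. LOX with bleomycin stood at 171 to 205% of its DMSO mean over the 3 arms. FBN1 was lower with shRNA 2 (-1.10, SE 0.27, adjusted p 0.0024) and not called with shRNA 1 (-0.63, adjusted p 0.0697), where leaving out bleomycin replicate 2 gave an adjusted p of 0.0128. FBN2 was not called in any arm and kept 78.1 to 102%.

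Ordered by mean CPM over the 6 groups of its line, each of the 8 members that were lower with 4OHT had all 3 DMSO groups above all 3 4OHT groups. Of its neighbouring groups, only the pair at that boundary differed past the threshold. For LOX no neighbouring pair differed. In IMR90 cells the boundary between DMSO and bleomycin groups was called for ELN, MFAP4, FBLN1, FBLN2, FBLN5, LOXL1 and LOX, not for FBN1, and the FBN2 groups were interleaved. These pairs were set by the order of the same means, and the share of all genes with such a boundary was not computed. Within single arms 31.2% to 40% of all genes were called between senescent and DMSO groups. The order is therefore given as a description.

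The DMSO controls of both lines were compared to see how far the lines differ at the start. No member was called by edgeR (lowest adjusted p 0.113, FBN1), where 0.346% of genes were called, while DESeq2 called 2 (ELN and FBN1) and 4 had an unadjusted p under 0.05 (ELN, FBN1, FBN2 and FBLN2). ELN (log2 fold change -1.40, adjusted p 0.225), FBN1 (-1.23) and FBN2 (-0.84, adjusted p 0.271) were lower in every ER:RAS library than in any IMR90 library, a pattern that 6.91% of all genes showed. MFAP4, FBLN1 and FBLN5 lay close to 0 (-0.12, -0.11 and -0.17), and their sign turned without ER:RAS DMSO replicate 3 (0.18, 0.14 and 0.01), that of MFAP4 also without IMR90 DMSO replicate 1 (0.02).

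Some members also varied together between replicates. Across the 42 libraries, after the group means were removed, the log2 CPM of FBN1 and FBN2 had a Pearson r of 0.926, and that of MFAP4 and FBLN1 0.872. LOX ran against most of the others, with an r of -0.286 with LOXL1, -0.574 with MFAP4, -0.41 with FBLN1 and -0.481 with FBLN2, and with the fibrillins (0.457 with FBN1 and 0.386 with FBN2). FBN1 and FBN2 were in turn weakly negative with LOXL1 (-0.264 and -0.306) and FBLN2 (-0.112 and -0.158). The median over the 36 pairs of tested members was 0.253. These are descriptions, since libraries share a fit, a line and in part a replicate number. In ER:RAS cells with DMSO, replicate 3 had the lowest FBLN1, MFAP4, FBLN2, FBLN5 and LOXL1 and the highest LOX in each of the 3 arms, for example 990 CPM of FBLN1 and 276 of LOX in the control arm. Replicate 3 of IMR90 cells with DMSO showed the same for all of these members in each of the 3 arms. In its control arm it had 1346 CPM of FBLN1 and 367.5 of LOX.

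Over the 12 group means of log2 CPM, the genes whose pattern was most like that of ELN were WNT2 (r = 0.997), GUCY1A1 (0.996) and C2 (0.996). For MFAP4 they were S1PR1 (0.998), LOC100505501 (0.998) and TMEM130 (0.997), and for FBLN1 RBMX (0.999), COL15A1 (0.998) and ADGRA2 (0.998). FBLN5 shared ADGRA2 (0.997) with FBLN1, beside ASAP3 (0.998) and SCMH1 (0.997), and the nearest of FBLN2 were SPEG, CFB and IFIT1 (each 0.997). FBN1 was nearest to PEAK1 (0.995), KIDINS220 (0.995) and ZSCAN29 (0.994), and FBN2 to PRKCE (0.994), FAT4 (0.993) and RNF103 (0.992). LOXL1 was nearest to ZC4H2 (0.997), CNN2 (0.996) and CNPY4 (0.993), and LOX, with the lowest values, to SLC7A11 (0.99), ZNF587B (0.989) and MORC4 (0.988). With 12 points split by senescence and 15298 genes to choose from, high values are common, and they are given as a description.

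The remaining genes of the elastic fibre pathway were read from lists of their own. Of 22 other genes of microfibril and elastic fibre assembly, 20 were tested with 4OHT, with 1 higher and 11 lower (median log2 fold change -1.12), and 21 with bleomycin, with 2 higher and 11 lower (median -0.84). Over all genes 15.5% were called higher and 20.2% lower with 4OHT, and 15.4% and 15.8% with bleomycin, which are the shares to set beside the counts of each list. The proteoglycan decorin (DCN, also among the fibroblast markers) and fibulin-3 (EFEMP1) had the largest changes with 4OHT, from 1582 to 10.6 CPM (log2 fold change -7.32, adjusted p 2.68e-10) and from 104 to 1.12 CPM (-6.58, adjusted p 7.99e-08). FBLN7 (-3.02) and ADAMTSL4 (-2.94), which binds fibrillin, were next. With bleomycin LTBP4, which helps fibulin-5 assemble elastin, led (365 to 55.0 CPM, -2.76, adjusted p 1.86e-09), followed by FBLN7 (-2.37), biglycan (BGN, -2.25) and DCN (-2.05).

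Some of these genes answered the treatments in opposite directions. They were picked after their values were seen. LTBP1, which tethers latent TGF-β to microfibrils, was lower with 4OHT (279 to 116 CPM, log2 fold change -1.36, adjusted p 0.000344) and higher with bleomycin (308 to 500 CPM, 0.67, adjusted p 0.0105). The difference between these responses was -1.97 (adjusted p 3.24e-06). LTBP2 did the reverse, at 0.52 (adjusted p 0.0392) with 4OHT and -1.18 (adjusted p 0.000181) with bleomycin, a difference of 1.75 (adjusted p 3.21e-05). The LTBP2 call with 4OHT was made in 6 of 11 alternative analyses, while both differences were called in all 20.

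Among 8 other genes of cross-linking and LOX activation, 3 of 6 tested were lower with 4OHT and none higher (median -0.74). These were LOXL4 (-0.96), LOXL3 (-0.89) and POSTN (-2.11, adjusted p 0.0457, called in 5 of 11 alternative analyses). With bleomycin 1 of 7 was higher, the protease TLL2 (2.49, on means of 0.19 and 1.07 CPM), and LOXL3 (-1.02) and LOXL4 (-0.66) were lower (median -0.40). LOXL2 was not called in either, at 0.12 and 0.29. Of the lysyl oxidase family, LOX was thus the member called higher with bleomycin.

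Elastin receptors and integrins (9 genes, all tested) included 3 that were higher with 4OHT (15.5% of all genes) and none lower (median 0.57): the integrins ITGA5 (1.84), ITGB3 (1.73) and ITGB5 (0.96). With bleomycin 1 was higher, ITGB3 (0.50, adjusted p 0.0319; median 0.00). These proteins let cells bind matrix.

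Enzymes that can degrade elastin were called in both directions. Of 10, 8 were tested with 4OHT, with 5 higher and 3 lower (median 2.75), and 7 with bleomycin, with 3 higher and 3 lower (median 0.27), beside 15.5% and 20.2% of all genes with 4OHT and 15.4% and 15.8% with bleomycin. With 4OHT MMP7 had 1441 counts in the 3 libraries against 0 with DMSO, at least 219-fold higher against a floor of 3 counts in each DMSO library. MMP9 had 1123 counts against 3 (ratio 501, 95% interval 171 to 2430) and MMP12, macrophage elastase, 701 against 3 (ratio 313, 107 to 1520), while cathepsin S (CTSS) went from 4.85 to 150 CPM (4.84, adjusted p 2.44e-08). With bleomycin MMP12 had 34 counts against 0, at least 2.88-fold higher, CTSS was higher (1.71) and ELANE (-3.74, on means of 0.78 and 0.06 CPM) and MMP2 (-1.83) were lower.

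Of 7 elastase inhibitors, 6 were tested in each comparison, with 4 higher and 2 lower with 4OHT (median 2.64) and 3 higher and 1 lower with bleomycin (median 1.00). Elafin (PI3) had 17894 counts with 4OHT against 0, at least 2770-fold higher, SERPINA1 rose from 0.14 to 52.6 CPM (8.51), TIMP1 from 1598 to 15028 CPM (3.12) and CST3 from 412 to 1996 CPM (2.16). With bleomycin SERPINA1 (1.59, on means of 0.15 and 0.45 CPM), TIMP1 (1.51) and TIMP3 (0.48) were higher and TIMP2 (-0.53) lower. TIMP3 was lower with 4OHT (-1.53), and its responses differed by -1.96 (adjusted p 9.21e-08). The medians of the elastase and inhibitor lists were the same with MMP7, PI3 and MMP12 set to their bounds.

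**Figure D5:**
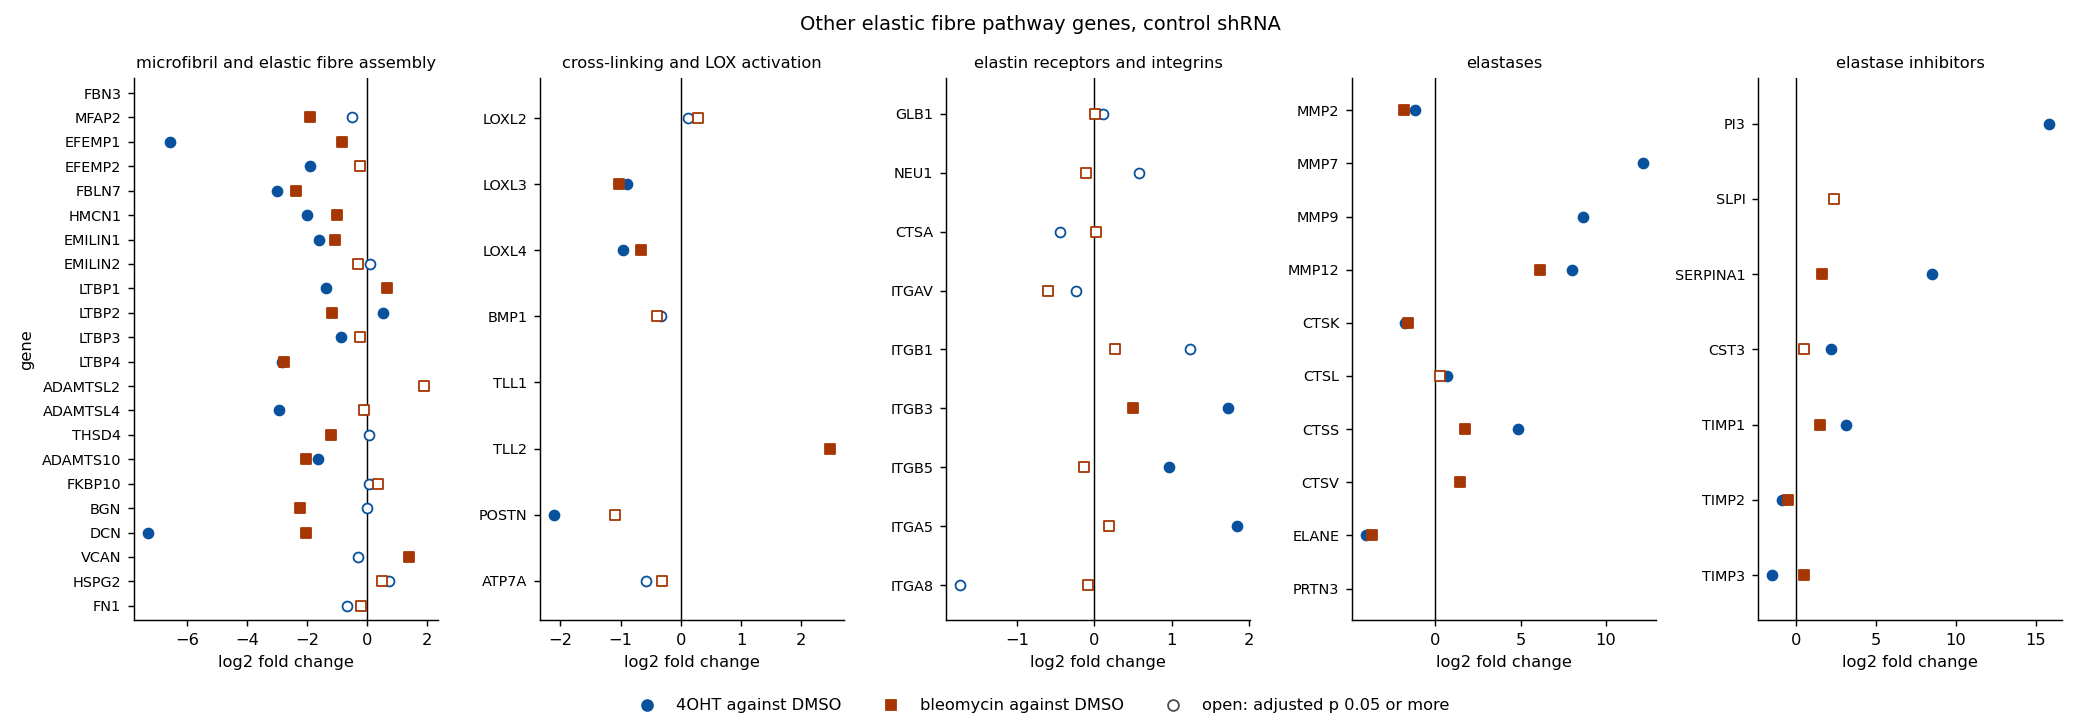
Log2 fold change of every tested gene of the pathway lists with the control shRNA, with 4OHT and with bleomycin; open points were not called and genes without a point were not tested. The assembly list centres below 0 (medians -1.12 and -0.84), and the elastase and inhibitor lists spread above 0 with 4OHT (medians 2.75 and 2.64); the sizes drawn for genes with 0 counts in a group, such as PI3 and MMP7, depend on the prior count of the fit.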

How the data were processed

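RNA-seq of 42 libraries was deposited by the authors as a single table of raw, unnormalized read counts for each gene symbol (28266 symbols, of which 3476 have no count in any library). Libraries were directional, poly(A)-selected and read from one end. The submitters' processing notes name DRAGEN, STAR 2.7.8a, DESeq2 1.32.0 and hg38, whereas the study's methods name Tophat with a setting for first-strand libraries, hg19 and an Ensembl annotation, and its reporting summary names HTSeq. The strand and overlap settings used in counting are not given in the sources used here, so genes that overlap others may share or lose reads. Symbols were matched to RefSeq on GRCh38.p14 for positions, and promoter sequences are from RefSeq on that build. Transcript lengths are from GENCODE.

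Groups were taken from the labels. After filterByExpr had dropped genes of low count and TMM had set the library scale, differences were tested with the two-sided quasi-likelihood F-test of edgeR 4.0.16 (R 4.3.3), in a fit of 18 ER:RAS libraries (14297 genes), of 24 IMR90 libraries (14783 genes) or, for comparisons across lines, of all 42 (15299 genes). P-values were adjusted over every gene of a fit (Benjamini-Hochberg), with calls at an adjusted p-value under 0.05. Values shown as log2 CPM carry a prior count of 2. Intervals of counts and the floor of 3 counts cover counting error only, since reads carry no molecular identifiers. The fit was tested on simulated data in which 200 genes were changed. For 14297 genes in the 4OHT comparison it recovered 8.16% of genes changed by 1 and 59% of those changed by 2 on the log2 scale. For 14783 genes in the bleomycin comparison it recovered 51% and 95%. The real comparisons called 5098 and 4614 genes, so their cutoff was less strict and these rates do not carry over to them.

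The members and lists were chosen with earlier results of these data known, and support nothing by themselves. Named are all members, COPB2, HRAS, up to 4 called genes with the largest change in each list in the senescence comparisons with the control shRNA, and the 3 genes nearest to each member over the 12 groups. Outside this rule are the marker genes, the overlapping genes, LOXL2, and the TIMP3 response to 4OHT with its difference. LTBP1 and LTBP2 are stated as picked after their values were seen. Alternatives were DESeq2 size factors, no filter, the Wald test of DESeq2 1.42.0, only the groups compared, the replicate number as a block, leaving out each library, and leaving out replicate 4 of every IMR90 group. Replicate libraries of a group differed beyond counting noise (chi-square per degree of freedom 7.152 to 325.8 over 54 pairs), so none was counted as a duplicate.

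Replicate numbers come from the labels, which do not say what they mark. The deviations of same-numbered libraries from their group means correlated above 0.1 in every pair for 4OHT with COPB2 shRNA 1 (0.463 to 0.788) and shRNA 2 (0.522 to 0.795), and for both knockdowns in IMR90 cells with DMSO (0.101 to 0.805 and 0.183 to 0.732) and with bleomycin (0.446 to 0.784 and 0.427 to 0.784). In these comparisons the block changed no count of members called.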

Additional observations from a re-analysis of the deposited data

Results flagged for a closer look

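In 4 of 60 sets, each 1 member in 1 group of 4 libraries, the highest or lowest value stood apart from the other 3 by Dixon's criterion. Chance gives about 1 in 20 for a single set, but the sets share libraries and are not independent. In IMR90 cells with bleomycin and COPB2 shRNA 1, replicate 2 was the highest for ELN (1.64 CPM, against 0.21 to 0.42 in the others) and for FBN2 (88.28 CPM, against 50.3 to 56.7). In IMR90 cells with DMSO and COPB2 shRNA 2, replicate 3 was the lowest for MFAP4 (971.1 CPM, against 1256 to 1305). In IMR90 cells with DMSO and the control shRNA, replicate 3 was the highest for LOX (367.5 CPM, against 272 to 287). In the other arms of IMR90 cells with DMSO, replicate 3 was also the lowest for MFAP4 and the highest for LOX, without passing the criterion. The last 2 flags are therefore part of a pattern that recurs in replicate 3.

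The log2 response to 4OHT less that to bleomycin differed from 0 by the edgeR test for FBN2 (-1.35), MFAP4 (-1.73), FBLN1 (-2.98), FBLN2 (-2.72), FBLN5 (-1.03) and LOX (-1.45). The cell line differs along with the treatment, and the part of either was not tested.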

How the results depend on the processing

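Over 8 senescence and line comparisons, the 9 tested members gave 963 alternative values, of which 921 kept the direction and the side of the threshold, 13 lost a call, 17 gained a call and 12 changed sign. With 4OHT, 8 members were called under each alternative in each arm, except 9 with the replicate block in the control arm (LOX, -0.76, adjusted p 0.00889). In that arm the same numbers did not pair the libraries (correlations -0.611 to 0.587), nor in the bleomycin comparisons (-0.5 to 0.587), so the block says nothing there of a weaker or stronger effect. With bleomycin, the block gave 8 members in the control arm and 8 with shRNA 1 (FBN1 added in both). Leaving out single libraries gave 6 to 8, 7 to 8 and 7 to 8 members in the 3 arms. For the difference between the responses, it gave 5 to 7, the block 8, and both a fit of only the groups compared and leaving out replicate 4 of every IMR90 group gave 4. Between the DMSO controls of both lines, no member was called, but 3 with the replicate block and 2 with the DESeq2 Wald test.

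The 12 values that changed sign belong to results that were not called. FBN2 with bleomycin and shRNA 1 was 0.00 and became -0.0196 without a filter and -0.0155 with the replicate block, with a range of -0.24 to 0.12 when single libraries were left out. LOX with 4OHT ran from -0.62 to 0.0174 with shRNA 1 and from -0.64 to 0.18 with shRNA 2 (highest without DMSO replicate 3 of that arm). Between the lines, leave-one-out ranges were -0.53 to 0.18 for MFAP4, -0.46 to 0.14 for FBLN1 and -0.43 to 0.0112 for FBLN5. The cause of these changes was not tested.

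Counts over all genes moved more. The 4OHT comparison called 5098 genes and 2911 with only the groups compared, and bleomycin with shRNA 2 called 5915 and 3734. COPB2 knockdown with 4OHT called 20 (0 to 50) and 32 (0 to 76) genes, with bleomycin 1 (1 to 3) and 11 (1 to 36), in ER:RAS cells with DMSO 1 (0 to 1) and 1 (0 to 3), and in IMR90 cells with DMSO 1 (1 to 1) and 1 (1 to 2). Its difference between 4OHT and DMSO called 0 (up to 8 and 12), and the line comparison 53 (2 to 202). The knockdown numbers in ER:RAS cells did not pair the libraries either (lowest correlation -0.57), and no member was called with the block there. Depth limits ELN with 4OHT and MFAP5 throughout.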
